A study of Rattus norvegicus with 2 samples.

Results

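Receptors that recognise microbial or damaged-cell molecules were examined in rat lung as a set of 53 genes among the 15610 named genes of the arrays. The set was chosen by name. It holds every gene whose platform symbol starts with Tlr and a digit, Nlr, Clec (leaving out the platelet receptor Clec1b and the endothelial gene Clec14a) or Siglec, together with Cd14, Ly96, Myd88, Marco, Msr1, Mrc1, Cd163, Scarb1, Scarb2, Trem1, Trem2 and Cd209a. Nod1 and Nod2 also belong to the rule and were not analysed here. The 53 genes were covered by 65 probes, and 42 of them by a single probe.

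RNA of untreated rat lung cells that were not cultured was labelled with Cy3 and hybridised on 2 two-colour Agilent arrays against RNA of mix1, labelled with Cy5. Mix1 combined 2 kinds of cultured rat cells, bone marrow cells (BMC) and primary ear fibroblasts (PEF), each grown in medium with bovine serum. The labels used here give no strain, sex or age. Nothing says that lung replicates 1 and 2 came from separate rats, so p-values cover the spread of these 2 hybridisations alone, and that spread may be technical. Each value is the log2 ratio of lung over mix1, where 1 means 2-fold higher in lung and -1 means 2-fold lower. That direction is likely and not stated outright: it rests on the wording of the series and on the sign of surfactant and other lung genes, and if the sign were the other way round, higher would read lower throughout.

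Pattern recognition receptors are the sensors of innate immunity. Toll-like receptors survey the cell surface and endosomes, NOD-like receptors survey the cytosol, and C-type lectins and Siglecs read sugars on microbes and on the body's own cells. Scavenger receptors take up modified lipoproteins, dead cells and particles. In lung these receptors are carried mainly by alveolar and interstitial macrophages, dendritic cells and neutrophils, and some of them also by epithelium and endothelium. Bone marrow also gives rise to myeloid cells, so a ratio here sets lung against a control that itself held cultured marrow cells.

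The largest block of higher genes lay side by side on chromosome 4. In RefSeq's gene order for the rat assembly GRCr8, Clec4a1, Clec4a3, Clec4b2, Clec4d and Clec4e followed each other with at most 2 other coding genes between neighbours. All 5 were higher in lung in limma's test against 0 (adjusted p under 0.05), as were 32.9% of all genes. Probes of closely related lectins can share sequence, and how far these genes were measured apart was not tested. These neighbours shared a direction and differed in size, with mean log2 ratios from 0.98 for Clec4d to 3.71 for Clec4b2. The 250 bases before their RefSeq starts are shown because of the shared direction. They are written 5′ to 3′ along each gene, and capitals mark matches to GAGGAA, the core recognised by the myeloid transcription factor PU.1, on either strand.
Clec4a1, chr4:157845561-157845810, plus strand: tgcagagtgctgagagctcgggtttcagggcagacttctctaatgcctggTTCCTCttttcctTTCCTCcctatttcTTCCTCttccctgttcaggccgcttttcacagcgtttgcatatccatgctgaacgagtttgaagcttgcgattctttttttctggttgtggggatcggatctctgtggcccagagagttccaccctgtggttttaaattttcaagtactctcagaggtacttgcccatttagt
Clec4a3, chr4:157886508-157886757, plus strand: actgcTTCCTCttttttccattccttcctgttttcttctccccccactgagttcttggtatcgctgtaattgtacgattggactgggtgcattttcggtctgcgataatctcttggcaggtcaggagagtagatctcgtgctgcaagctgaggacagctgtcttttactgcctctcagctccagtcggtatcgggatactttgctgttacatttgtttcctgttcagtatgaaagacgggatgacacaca
Clec4b2, chr4:158148184-158148433, plus strand: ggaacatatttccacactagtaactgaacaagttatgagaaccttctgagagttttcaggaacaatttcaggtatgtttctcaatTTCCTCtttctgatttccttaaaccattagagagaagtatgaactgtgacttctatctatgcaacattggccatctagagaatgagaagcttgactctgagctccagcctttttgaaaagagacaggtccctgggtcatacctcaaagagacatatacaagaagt
Clec4d, chr4:158275093-158275342, plus strand: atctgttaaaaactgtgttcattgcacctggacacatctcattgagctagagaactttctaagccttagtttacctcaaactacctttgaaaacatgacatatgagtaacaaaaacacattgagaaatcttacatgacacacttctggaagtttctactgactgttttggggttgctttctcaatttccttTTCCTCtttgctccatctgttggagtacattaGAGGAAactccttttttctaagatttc
Clec4e, chr4:158298468-158298717, minus strand: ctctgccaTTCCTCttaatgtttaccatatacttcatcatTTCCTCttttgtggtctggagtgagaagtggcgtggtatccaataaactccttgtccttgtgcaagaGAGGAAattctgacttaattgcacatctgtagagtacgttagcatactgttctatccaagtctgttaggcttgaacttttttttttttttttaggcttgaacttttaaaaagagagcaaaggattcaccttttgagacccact
The letters GAGGAA or their complement were present in each of these 5 windows, 3 times in Clec4a1 and Clec4e, 2 times in Clec4d and 1 time in Clec4a3 and Clec4b2. Of the 43 receptor genes with a RefSeq promoter entry, 24 held a match in the same window (55.8%), against 6379 of 27457 promoters in the whole table (23.2%). By role, a match was found for 5 of 6 myeloid C-type lectin receptors, 3 of 3 Siglecs, 3 of 4 endosomal and 3 of 6 surface Toll-like receptors, 4 of 8 NOD-like receptors, 2 of 4 scavenger receptors, 1 of 2 TREM receptors, 1 of 2 co-receptors and adaptors, and 2 of 8 other C-type lectin genes. Genes with low ratios held matches too, Cd14 with 2 and Clec11a with 1. The sequence GGGNNTTCC, a form of the site of the factor NF-kB, was searched on both strands in the same way. It was present in 1417 promoters of the table (5.16%) and in 3 of the 43 (6.98%), those of Mrc1, Tlr2 and Tlr7. Both motifs were chosen with the receptors' ratios known, and this form replaced a longer one, 1 base more in its middle, that had been searched first and had no match in these 43 promoters. A match is a description of letters, not a bound site, and its absence says nothing of the factor. Spi1, the gene of PU.1 and a pan-leukocyte marker below, had a log2 ratio of 1.94 on replicate 1 and 2.01 on replicate 2. A link between Spi1 and the receptor ratios was not tested.

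**Figure D1:**
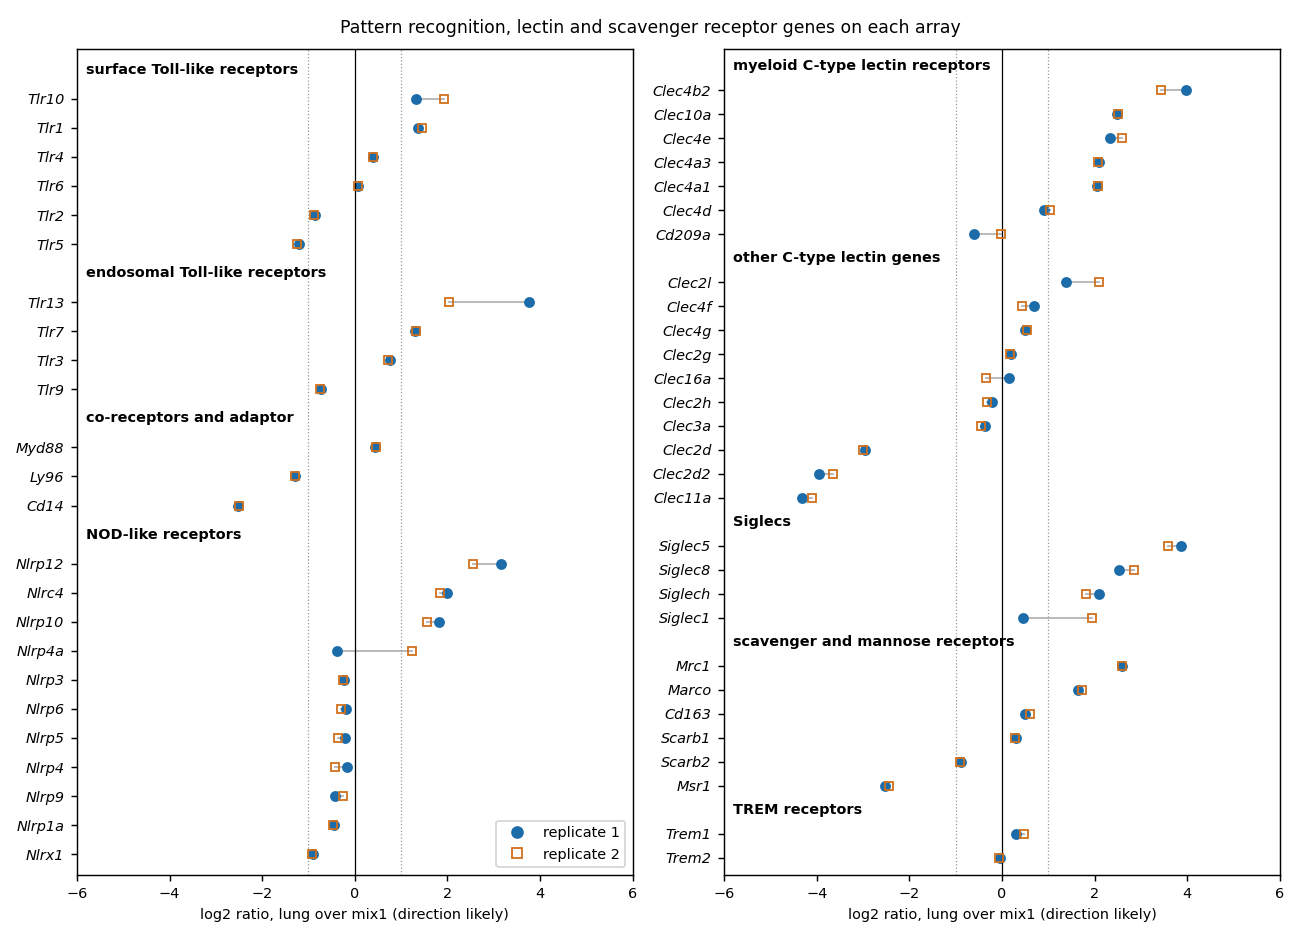
Log2 ratio of lung over mix1 (x axis) for each of the 53 receptor genes (y axis, by role), with replicate 1 as filled circles, replicate 2 as open squares and dotted lines at 2-fold. Myeloid C-type lectin receptors and Siglecs lie mostly to the right, whereas Clec11a, Clec2d2, Clec2d, Cd14 and Msr1 lie far to the left on both arrays.

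More receptor genes were higher in lung than lower, and a few were many-fold lower. Their median log2 ratio was 0.39, against -0.22 for all genes, and the range ran from -4.22 for Clec11a to 3.72 for Siglec5. In limma's moderated test against 0, at a Benjamini-Hochberg adjusted p under 0.05, 28 were higher and 18 lower. Among all genes 32.9% were called higher and 49.7% lower in that test, 82.7% together, so a call against 0 separates few genes from the rest (86.8% of the receptors had one). Calls were therefore also made with limma's treat, which tests for a change beyond 2-fold and is named the 2-fold test here. It called 15 receptors higher (28.3%) and 7 lower (13.2%), where the shares over all genes were 13.7% and 12.0%, or 25.8% in either direction. At least 2-fold on both arrays were 18 receptors upward (34.0%, all genes 16.5%) and 7 downward (13.2%, all genes 15.8%, and 32.3% in either direction). No test compared the set with other genes, so these counts describe it and do not show that it differs from them.

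**Figure D2:**
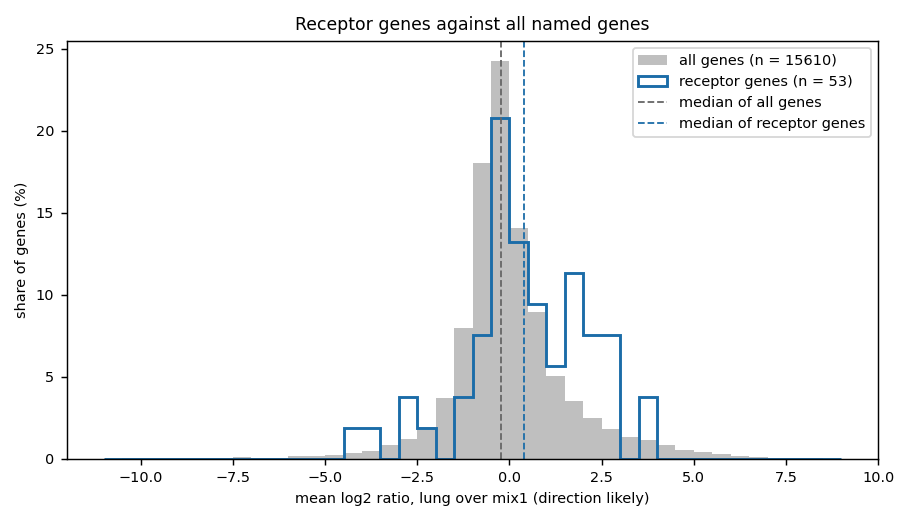
Share of genes (y axis, percent) by mean log2 ratio of lung over mix1 (x axis, bins of 0.5) for all 15610 genes in grey and the 53 receptor genes in blue, with dashed lines at the medians. The receptor genes have their median at 0.39 and all genes at -0.22.

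The arrays gave close values for most receptors: 43 of 53 differed by less than 0.3 between replicates, and the median SD was 0.067. Siglec1, Tlr13 and Nlrp4a were more than 2-fold apart between arrays, as were 1.79% of all genes, and Nlrp4a and Clec16a had opposite signs on the arrays.

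Genes of leukocytes moved in the same direction as most receptors. For comparison, the 2-fold test called 13.7% of all genes higher and 12.0% lower, and the test against 0 32.9% and 49.7%. All 5 measured pan-leukocyte markers passed the 2-fold test upward, with a median of 2.10 and a range of 1.98 to 3.06, led by Coro1a, Ptprc and Laptm5. Of 8 genes listed for neutrophils, 7 passed it upward (median of the list 3.52, with S100a9 at 7.65, S100a8 at 6.18 and Mmp8 at 5.24). The other listed gene, Ly6g6d, lay at -0.40, and whether it marks neutrophils was not tested. T and natural killer cell markers passed it upward for 7 of 7 (median 4.07, led by Cd3g, Klrd1 and Prf1). Klrd1 and Cd3e passed narrowly (limma treat adjusted p 0.0489 and 0.0463). Klrd1 lay at 5.80 on replicate 1 and 3.92 on replicate 2, and Cd3e at 4.82 and 3.33. Among 3 measured B cell markers, Cd79b and Cd22 passed the 2-fold test upward (Cd22 not with the median probe, at 0.70) and Ms4a1, at 0.01 on replicate 1 and 4.01 on replicate 2, was not called. The median probe is the lower probe of a gene with 2, so it can only lower that gene. Macrophage markers were higher against 0 for 8 of 11 and lower for 2, with a median of 0.43. The 2-fold test kept 3 upward, Lyz2 at 4.61, Itgam at 1.98 and Mertk at 1.96, and none downward. The lower genes were Adgre1, a general macrophage gene, at -1.02 and the complement gene C1qa at -0.81, whereas the other complement genes of the list, C1qb at 0.43 and C1qc at 0.28, were called higher. The growth factor receptor Csf1r, at 0.22, was not called. Of 4 measured alveolar macrophage markers, Car4 at 5.04, Pparg at 3.60 and Fabp4 at 1.81 passed the 2-fold test and Chi3l3 lay at -0.14, and both Car4 and Fabp4 are also expressed by lung endothelium. Dendritic cell markers passed the 2-fold test for 2 of 5, Batf3 at 2.49 and Cd83 at 1.82. Fibroblast markers were lower for 8 of 8, 7 of them past the 2-fold test, with Col1a1 at -7.25, Col1a2 at -7.18 and Lum at -6.87. Lung epithelial markers passed it upward for 6 of 6, with Epcam at 7.95, Sftpc at 7.02 and Sftpb at 5.70, but the sign of the ratios was settled partly with such genes, so their direction is no check of the tissue. Endothelial markers passed it for 5 of 6, with Kdr at 6.04, Vwf at 4.63 and Tek at 4.31, and Tie1 among them no longer did with the median probe (2.27 to 1.33). A ratio of RNA from mixed cells cannot tell apart more cells of a type and more RNA per cell, and the part of these cell types in the receptor values was not tested.

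Toll-like receptors were divided, with mean log2 ratios from -1.23 for Tlr5 to 2.90 for Tlr13. Of 10 measured, 6 were higher and 3 lower against 0 (all genes 32.9% and 49.7%), with a median of 0.57. The 2-fold test kept Tlr1 and Tlr7 upward and Tlr5 downward (all genes 13.7% and 12.0%). On the cell surface, Tlr1, a partner of Tlr2 for bacterial lipopeptides, had a log2 ratio of 1.37 on replicate 1 and 1.46 on replicate 2, or 2.66-fold higher in lung (limma treat adjusted p 0.0147). Its neighbour Tlr10 lay at 1.32 and 1.92, 3.08-fold higher in the mean, and passed against 0 (limma adjusted p 0.0149) but not beyond 2-fold (0.137). Tlr6, the other partner of Tlr2 and next to Tlr1 on chromosome 14, lay at 0.07 on either array and was not called (limma adjusted p 0.133, and 0.0199 with array medians subtracted). The 3 neighbours thus had different ratios, Tlr1 and Tlr10 overlapping and Tlr6 below them on both arrays. Tlr2 itself was lower, at -0.86 and -0.89. The flagellin receptor Tlr5 was lower at -1.21 and -1.25, 2.34-fold (limma treat adjusted p 0.0286), a call beyond 2-fold that ended with array medians subtracted (-1.04, adjusted p 0.809). The endotoxin receptor Tlr4 lay at 0.39 on both arrays, 1.31-fold higher (limma adjusted p 0.00607).

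In the endosome, Tlr7, which senses single-stranded RNA, had 1.30 on replicate 1 and 1.31 on replicate 2, 2.47-fold higher (limma treat adjusted p 0.0140). The rodent sensor of bacterial ribosomal RNA, Tlr13, had the highest mean of the family but the widest spread, 3.77 on replicate 1 and 2.03 on replicate 2. Both arrays placed Tlr13 above 2-fold, and it passed against 0 (limma adjusted p 0.0365) and not beyond 2-fold (0.143). With array medians subtracted, Tlr10 and Tlr13 passed beyond 2-fold as well (adjusted p 0.0311 and 0.0308). Tlr3, the receptor for RNA duplexes, was higher at 0.77 and 0.72, and Tlr9, the receptor for bacterial DNA, was lower at -0.73 and -0.76. Tlr8, Tlr11 and Tlr12 were not analysed here.

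The co-receptors for endotoxin went the other way from Tlr4. Cd14, which hands lipopolysaccharide to the Tlr4 complex, had log2 ratios of -2.52 on replicate 1 and -2.51 on replicate 2, 5.70-fold lower in lung (limma treat adjusted p 0.00185), and its probes lay at -2.69 and -2.33. Ly96, the MD-2 subunit that binds lipopolysaccharide beside Tlr4, lay at -1.29 and -1.28, 2.44-fold lower (limma treat adjusted p 0.0153, and 0.280 with array medians subtracted). Myd88, the adaptor of most Toll-like receptors, was 1.36-fold higher at 0.44 and 0.45. Thus 3 genes that act in 1 recognition complex spanned 0.39 for Tlr4, -1.29 for Ly96 and -2.51 for Cd14, each with an SD of 0.01 or less between arrays and only each gene's own ratio was tested.

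Among 11 NOD-like receptor genes, 3 passed the 2-fold test upward and none downward (all genes 13.7% and 12.0%). The other 8 had means from -0.91 to 0.43. Nlrp12, expressed in neutrophils and other myeloid cells, had log2 ratios of 3.17 on replicate 1 and 2.55 on replicate 2, 7.25-fold higher in lung (limma treat adjusted p 0.0210). Nlrc4, which assembles the inflammasome that answers flagellin and bacterial secretion needles, lay at 1.98 and 1.85, 3.78-fold higher (0.00620 in the same test). Nlrp10, a family member without the leucine-rich repeats, lay at 1.83 and 1.55, 3.22-fold higher (0.0290). These were the NOD-like receptors past 2-fold on both arrays. Nlrp3, the inflammasome sensor of membrane damage, was at -0.23 and -0.25. Nlrp1a lay at -0.45 and -0.47, Nlrp6 at -0.18 and -0.30, and the mitochondrial member Nlrx1 was the lowest, at -0.90 and -0.92. The germ-cell members Nlrp4, Nlrp5 and Nlrp9, near each other on chromosome 1, had means of -0.31, -0.29 and -0.34, where the median of all genes was -0.22. Against 0, limma called 3 of the 11 higher and 6 lower (all genes 32.9% and 49.7%). Subtracting array medians raised the median gene by 0.19 and left 3 higher and 2 lower, since Nlrp3, Nlrp5, Nlrp6 and Nlrp9 no longer passed. Nlrp4a, next but 2 coding genes to Nlrp12, lay at -0.39 on replicate 1 and 1.24 on replicate 2 and was not called.

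**Figure D3:**
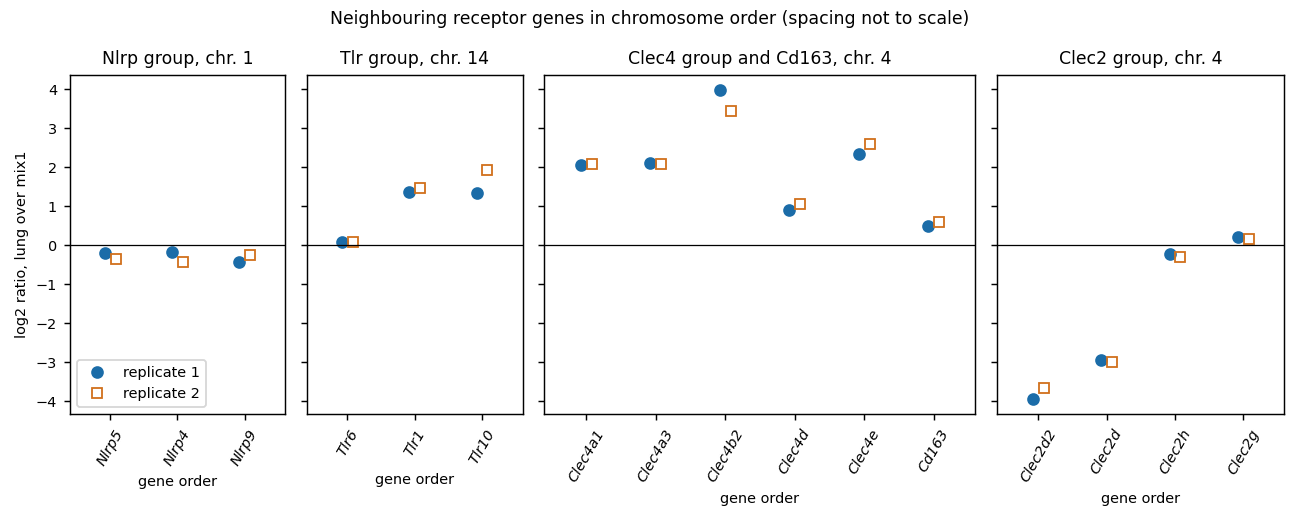
Log2 ratio of lung over mix1 (y axis) for receptor genes that neighbour each other, in chromosome order (x axis, spacing not to scale), replicate 1 as filled circles and replicate 2 as open squares. The 5 Clec4 genes on chromosome 4 and Cd163, plotted beside them, lie above 0 on both arrays, and in the Clec2 group Clec2d2 and Clec2d lie below -2.9 while Clec2h and Clec2g lie near 0.

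C-type lectin receptors of myeloid cells were higher for 6 of 7 measured genes and lower for none, with a median of 2.09, and 5 passed the 2-fold test. Of all genes, 32.9% were higher and 49.7% lower against 0, and 13.7% passed the 2-fold test upward. Clec4b2, of the group of DCIR and DCAR receptors, had log2 ratios of 3.98 on replicate 1 and 3.43 on replicate 2, 13.1-fold higher in lung (limma treat adjusted p 0.00908). Clec4e, or Mincle, the receptor for mycobacterial cord factor, lay at 2.34 and 2.59, 5.51-fold higher (0.00678). Clec10a, a macrophage lectin for galactose and N-acetylgalactosamine, lay at 2.49 and 2.50, 5.64-fold higher (0.00186). It lies outside the Clec4 block and had the smallest spread of the group. Clec4a3 and Clec4a1, of the DCIR type, gave nearly equal ratios: 2.10 and 2.07 for Clec4a3 and 2.04 and 2.07 for Clec4a1, 4.25-fold and 4.15-fold higher. Clec4d, the partner of Mincle, had the smallest ratio of the 5 Clec4 neighbours on both arrays, at 0.91 and 1.05, higher against 0 (limma adjusted p 0.00385) and not beyond 2-fold. Cd209a, a relative of the dendritic cell lectin DC-SIGN, lay at -0.60 and -0.02 and was not called. Probes of closely related lectins can share sequence, and probe sequences were not used here, so how far the DCIR-type genes were measured apart was not tested. The other 10 genes of this role list, Clec7a, Clec9a and Clec12a among them, were not analysed here.

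The remaining C-type lectin genes, a mixed group, held the 3 lowest values of the set. Of 10, 4 were higher and 5 lower against 0 (all genes 32.9% and 49.7%), and none higher and 3 lower beyond 2-fold (13.7% and 12.0%). The median of -0.19 went to 0.00 with array medians subtracted and was -0.04 on replicate 1 and -0.33 on replicate 2. Clec11a, a secreted growth factor of marrow stroma, had log2 ratios of -4.33 on replicate 1 and -4.10 on replicate 2, 18.6-fold lower in lung (limma treat adjusted p 0.00235). Its probes were both low but lay far apart, at -5.94 and -2.49. Clec2d, the ligand of an inhibitory natural killer receptor, lay at -2.95 and -2.995, 7.84-fold lower (0.00178), with probes at -3.87 and -2.08. Clec2d2, a neighbouring gene of the same type, lay at -3.94 and -3.66, 13.9-fold lower (0.00347). Probe sequences were not used here, so how far Clec2d and Clec2d2 were measured apart was not tested. In the same stretch of chromosome 4, Clec2h at -0.22 and -0.32 and Clec2g at 0.20 and 0.16 stayed within 0.4 of 0. The Clec2 neighbours thus split into a low pair and a pair near 0, without overlap on either array. Their relative Clec2l, which lies elsewhere and is best known from brain, was higher at 1.38 and 2.09, at least 2-fold on both arrays (limma adjusted p 0.0186; beyond 2-fold 0.143). Clec2l passed beyond 2-fold with array medians subtracted (adjusted p 0.034) and with the median probe (1.32, adjusted p 0.0159). One of its probes was steady at 1.34 and 1.30, and the other gave 1.41 and 2.89. Clec4f, a receptor of liver macrophages, had a mean of 0.56 and Clec4g, known from sinusoidal endothelium, of 0.52. Clec3a, a cartilage gene, had a mean of -0.41. Clec16a, an endosomal protein that is no sugar receptor, had 3 probes with means of -0.25, -0.08 and 0.03, and its mean on the arrays was 0.15 and -0.35, which was not called (mean -0.10, and 0.09 with array medians subtracted).

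Siglecs, lectins for sialic acid on leukocytes, were high in lung, with 3 of 4 past the 2-fold test (all genes 13.7% upward) and a median of 2.33. Siglec5 had the highest mean of all 53 genes, with log2 ratios of 3.86 on replicate 1 and 3.58 on replicate 2, 13.2-fold higher in lung (limma treat adjusted p 0.00340). Siglec8 lay at 2.53 and 2.85, 6.47-fold higher (0.00797), and is separated from Siglec5 on chromosome 1 by 15 other coding genes. Siglech, a marker of plasmacytoid dendritic cells, lay at 2.10 and 1.82, 3.89-fold higher (0.0162). Siglec1, the macrophage receptor sialoadhesin, was above 0 on both arrays but far apart, at 0.45 and 1.94, and was not called (limma adjusted p 0.135, and 0.0468 with array medians subtracted).

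Scavenger receptors split by gene. Against 0, 4 of 6 were higher and 2 lower (all genes 32.9% and 49.7%). Beyond 2-fold, 2 were higher and 1 lower (all genes 13.7% and 12.0%). With the lower of each gene's probe values taken on each array, 2 were higher and 3 lower against 0, and Scarb1 then lay at -0.71 and Cd163 at 0.20. The mannose receptor Mrc1, carried by alveolar and tissue macrophages, had log2 ratios of 2.60 on replicate 1 and 2.58 on replicate 2, 6.03-fold higher in lung (limma treat adjusted p 0.00183), with probes at 2.27 and 2.91. Marco, the particle receptor of alveolar macrophages, lay at 1.65 and 1.73, 3.23-fold higher (0.00604). Msr1, the class A scavenger receptor of macrophages, lay at -2.54 and -2.44, 5.61-fold lower (0.00259). Marco and Msr1, receptors of the same class, thus stood on opposite sides of 0 on both arrays. Scarb2, the lysosomal membrane protein LIMP-2, was 1.86-fold lower at -0.89 and -0.90.

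Scarb1 and Cd163 depended on the probe. Scarb1, the receptor for high-density lipoprotein, had a probe at 1.29 on both arrays and another at -0.69 on replicate 1 and -0.72 on replicate 2. Its mean of 0.29 therefore stands for neither probe, and the direction of Scarb1 is not settled here. Cd163, the haemoglobin scavenger of macrophages, had a mean of 0.55 that passed against 0 (limma adjusted p 0.00725), while its single probes ran from 0.00 to 0.59 and from 0.39 to 1.20 over the arrays and neither passed alone (adjusted p 0.278 and 0.0956). The TREM receptors, which signal through Tyrobp, were near level: Trem1, an amplifier of neutrophil and monocyte responses, lay at 0.31 and 0.47 and passed against 0 (limma adjusted p 0.0225), and the lipid receptor Trem2 lay at -0.04 and -0.06 and was not called (0.14 in the mean with array medians subtracted).

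**Figure D4:**
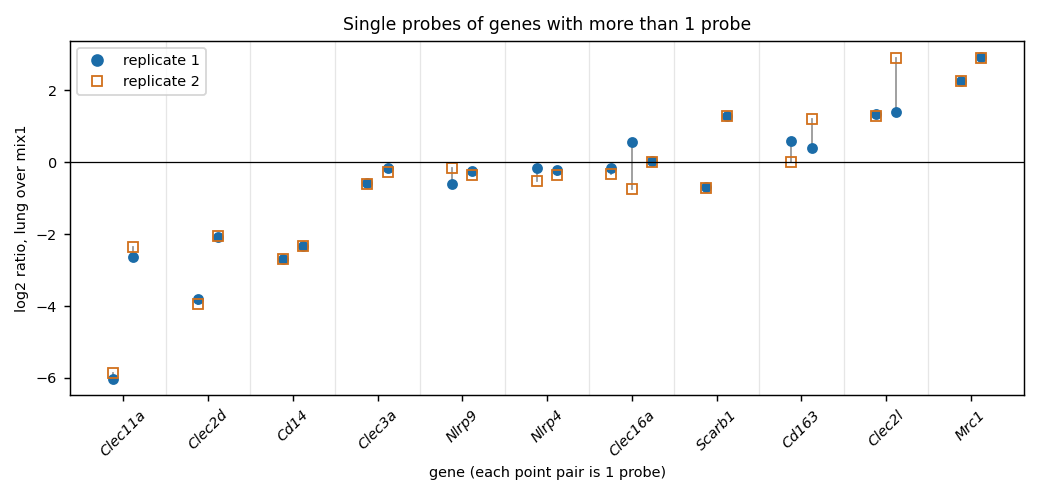
Log2 ratio of lung over mix1 (y axis) of every single probe of the 11 receptor genes with more than 1 probe (x axis), replicate 1 as filled circles and replicate 2 as open squares joined by a line. The probes of Scarb1 lie on opposite sides of 0, at -0.71 and 1.29, and those of Clec11a at -5.94 and -2.49.

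Genes that act with these receptors were followed through lists of their pathways. For comparison, 32.9% of all genes were higher and 49.7% lower against 0, and 13.7% and 12.0% beyond 2-fold. Downstream of C-type lectin receptors, 10 of 13 genes were higher and 3 lower against 0 (median 1.16), with 6 and 1 past the 2-fold test. The kinase Lyn lay at 3.27 ± 0.03 (SD, n = 2), the phospholipase Plcg2 at 2.47 ± 0.01 and Syk, the kinase recruited by activating lectins, at 2.27 ± 0.13. The adaptor chains Fcer1g, which carries the signal of Mincle, and Tyrobp, which carries that of the TREMs, lay at 2.09 and 1.46. Card9, the adaptor below Syk, was lower at -0.61 ± 0.02 and the kinase Src at -1.55 ± 0.02. Inflammasome genes ranged widely: 9 of 13 were higher and 4 lower (median 0.66), 6 and 0 beyond 2-fold. With the median probe of each gene, the lower where there were 2, 6 were higher and 4 lower (median 0.19), 5 and 1 beyond 2-fold. Mefv, the gene of pyrin, lay at 4.52 ± 0.03, the redox regulator Txnip at 3.83 ± 0.06 and the DNA sensor Aim2 at 3.76 ± 0.12, while caspase 1 (Casp1) lay at 2.11 and its adaptor Pycard at 1.68. Il1b was lower at -1.11 ± 0.02 against 0 and not beyond 2-fold. The sensor Nlrp3 had a mean of -0.24 beside these partners, and differences between genes were not tested.

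Toll-like receptor signalling genes lay on both sides of 0, as did all genes (32.9% higher and 49.7% lower against 0, 13.7% and 12.0% beyond 2-fold). Of 27 measured, 12 were higher and 10 lower (15 and 7 with array medians subtracted), the median was 0.37 (0.08 with the median probe and 0.03 over single probes), and the 2-fold test kept 3 upward and 1 downward (3 and 4 with the median probe of each gene). For a gene with 2 probes the median probe is the lower, so that setting can only lower such a gene. The interferon factors Irf7 and Irf3 lay at 3.75 ± 0.02 (SD, n = 2) and 1.41 ± 0.01, and Ly86, the MD-1 partner of the receptor Cd180, at 3.004 ± 0.48. The endoplasmic reticulum chaperone Cnpy3, which folds Toll-like receptors, was lower at -1.96 ± 0.02. The other Toll-like receptor chaperone Hsp90b1 was lower at -1.08 ± 0.01 against 0 and not beyond 2-fold, and the transporter of endosomal receptors Unc93b1 at -0.31 ± 0.08. Negative regulators lay on both sides of 0 as well: 6 of 16 were higher and 8 lower (median -0.31), near the shares of all genes. Beyond 2-fold there were 3 in each direction, or 3 higher and 2 lower with array medians subtracted. Sigirr, an inhibitory receptor of the family, lay at 3.86 ± 0.11, the phosphatase Ptpn6 at 2.65 ± 0.01 and the ubiquitin ligase Peli1 at 2.00 ± 0.12 (1.01 and not beyond 2-fold with the median probe). Il1rl1, the receptor for interleukin 33, lay at -6.73 ± 0.06 (-9.84 with the median probe), Tnip3 at -2.61 ± 0.46 and Nfkbie at -1.24 ± 0.02. Of the cytosolic RNA and DNA sensors and effectors, 7 of 8 were higher and 1 lower, with Oas1a at 5.08 ± 0.04, Zbp1 at 3.29 ± 0.11 and Trim25 at 1.40 ± 0.01 beyond 2-fold. The lower gene was Sting1 at -0.15 ± 0.04, a call close to the threshold: no gene of the list was called lower with array medians subtracted, arrays scaled to each other, the median probe, robust eBayes or single probes. With the median probe 6 were higher, and the kinase Eif2ak2 went from 0.94 to 0.14.

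Scavenger receptors outside the set split by the same 2-fold test into 4 higher and 5 lower of 13 (median -0.32). That test called 13.7% of all genes higher and 12.0% lower. Cd36, a receptor for fatty acids and oxidised lipoproteins, lay at 3.96 ± 0.04 (SD, n = 2), Ager at 3.94 ± 0.12 and Scarf1 at 1.44 ± 0.07, which fell to 0.06 with the median probe. The lower genes were Lrp1 at -2.20 ± 0.04, Scara5 at -2.17 ± 0.14 and Colec12 at -1.98 ± 0.07, followed by Scara3 and Scarf2, several of which are known from fibroblasts and other stromal cells. Soluble pattern recognition molecules had 5 of 16 higher and 1 lower beyond 2-fold. The lung collectins Sftpa1 and Sftpd lay at 6.11 ± 0.09 and 5.58 ± 0.02 and the ficolin Fcnb at 3.47 ± 0.13, and the long pentraxin Ptx3 lay at -5.24 ± 0.22. The sign of the ratios was settled partly with surfactant and other lung genes, so the direction of Sftpa1, Sftpd and Ager is no finding. The median of the soluble molecules, -0.28, was -0.51 on replicate 1 and -0.08 on replicate 2, to either side of the median of all genes.

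**Figure D5:**
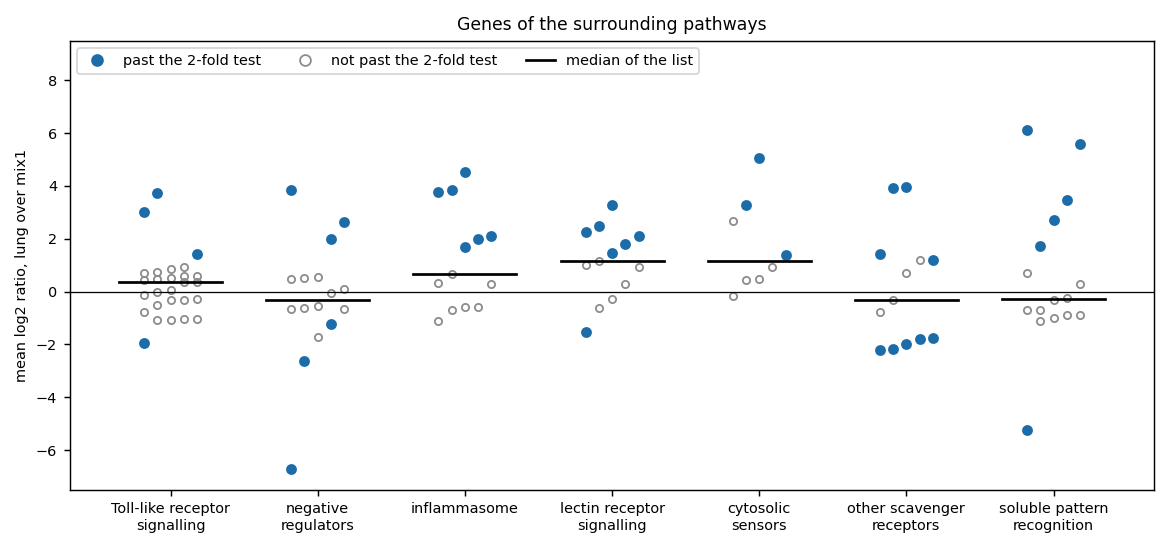
Mean log2 ratio of lung over mix1 (y axis) of each measured gene in 7 pathway lists (x axis), filled where limma's 2-fold test was passed and open where it was not, with a bar at each list's median. Lectin receptor signalling has its median at 1.16 and Toll-like receptor signalling at 0.37. The latter was 0.08 with the median probe of each gene, which is the lower for a gene with 2 probes.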

How the data were processed

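Lung RNA (Cy3) and mix1 RNA (Cy5) were compared on 2 arrays, scanned with Agilent Feature Extraction, per the submitters' processing notes; its version, the handling of background and dyes, and what the ratios are centred on are not given. The authors' deposited table holds 1 value per probe, taken as a log2 ratio from its range; no source states the log base. Of 40012 probes, 20417 carry a symbol in GEO's platform annotation. Symbols were updated through RefSeq accession (16978 probes), current symbol (3044) or synonym (387) of assembly GRCr8, and 8 were kept. Probes of a gene were averaged.

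All 15610 genes were fitted in limma 3.58.1 (R 4.3.3; intercept, eBayes, treat against 2-fold, Benjamini-Hochberg, threshold 0.05), with 1 residual and 1.28 prior degrees of freedom. The fit was also run on simulated data with far fewer changed genes than were called here. That run therefore says nothing of the error rate in these data. Mix1 entered as 1 control RNA and no dyes were swapped, so its spread and any dye effect are left out; the number of arrays limits precision. The other settings tried were subtracting array medians, scaling arrays to each other, the median probe value on each array (the lower of the middle ones), unchanged symbols, robust eBayes, an adjusted p under 0.01, single probes, treat against 4-fold and leaving out each array. Receptors at least 2-fold from 0 on both arrays or with probes of opposite sign are given array by array; listed genes are named up to 3 per direction past the 2-fold test, and others were chosen after their values were seen. The receptors and lists were chosen with earlier results of these data known. The NF-kB motif was shortened after a longer form, with no match among the receptors, had been searched; only the shorter is counted. The planned reading of protein sequences was not run.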

Additional observations from a re-analysis of the deposited data

How the results depend on the processing

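Each receptor had the sign and the side of the threshold against 0 reported here under scaling between arrays, unchanged symbols and robust eBayes. With array medians subtracted, 44 of 53 did, and so did 51 with the median probe and 41 at an adjusted p under 0.01. The count past 2-fold upward went from 15 to 4 when treat was run against 4-fold, and that downward from 7 to 5. The median of the receptors, 0.39, was 0.58 with array medians subtracted and 0.18 over single probes. Receptors at least 2-fold on both arrays numbered 18 upward, 18 to 21 on a single array, and 7 downward, 7 on either array alone; the median was 0.31 to 0.44. The sign turned for Clec16a (0.0863 with array medians subtracted, 0.0257 in a single probe), for Trem2 (0.14 with array medians subtracted) and for Scarb1 (-0.71 with the median probe and in that probe). Without replicate 2, the uncalled Nlrp4a was -0.39 and Clec16a 0.15. The median probe is the lower probe of a gene with 2, so that setting can only lower such a gene. With the median probe, Il18, Peli1 and Scarf1 of the pathway lists and the markers Cd22 and Tie1 no longer passed beyond 2-fold (0.89, 1.01, 0.06, 0.70 and 1.33), and Lrp1 and Colec12 moved to -3.03 and -2.59. As marker genes, Col1a1, Sftpb and Vwf moved to -6.51, 4.89 and 3.90. The median of the negative regulators, -0.31, was -0.46 with the median probe, -0.12 with array medians subtracted and -0.10 over single probes, and that of the other scavenger receptors, -0.32, was -0.13 with array medians subtracted and -0.66 over single probes. The causes were not tested. With no background values used here, it is unknown which ratios have a dim channel. No paired analysis was possible because there is a single group against 1 control RNA.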

Other observations

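The gene that the platform names Cd209b, and RefSeq now names Clec4m, fell outside the naming rule. This relative of DC-SIGN had log2 ratios of 3.08 on replicate 1 and 2.91 on replicate 2, past the 2-fold test (limma treat adjusted p 0.00298), whereas Cd209a lay at -0.60 and -0.02. The difference between them was not tested. Another lectin gene named only through RefSeq, Clec2ml1, lay at -0.22 and -0.36.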
